A study of Mus musculus with 10 samples.

Results

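Of the 10 RNA libraries of this study, 8 form 4 pairs that share a group and differ in replicate number, and the 4 libraries numbered 1 are compared here with the 4 numbered 2. The cells were fibroblasts of mouse embryos (MEFs), matrix-making cells of connective tissue, immortalised so that they keep dividing in culture. They were labelled Slfn2 WT or Slfn2 KO. The cells had either no treatment or 6 h with mouse IFN-β (interferon-β, an antiviral cytokine) at 5000 IU/ml. The part of Slfn2 that is deleted and the number of lines derived per genotype are not given in the sources used here. Per the labels, cells were plated in duplicate or triplicate, and each title ends in a number from 1 to 3. Numbers 1 and 2 occur in all 4 groups (WT untreated, WT with IFN-β, KO untreated, KO with IFN-β), and number 3 occurs in the 2 WT-labelled groups only. The libraries were chosen by this number and by no measured value. What a number stands for is not stated, so a shared plating, harvest, RNA extraction, library preparation or sequencing run cannot be told apart. Values for 4 libraries are given below in the order WT untreated, WT with IFN-β, KO untreated, KO with IFN-β.

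As background, cultured fibroblasts move between growth states with their density, spreading, serum supply and time since feeding. Serum and attachment switch on immediate early genes, partly through the factor SRF, and tension on the actin skeleton frees the cofactors MRTF and YAP, which act with SRF and TEAD factors on contractile and matrix genes. Growing cells build ribosomes under MYC. Resting cells raise CDK inhibitors and lysosomal genes, and cells short of sterol raise the SREBP-driven enzymes of cholesterol synthesis. Lists of such genes, and of stress, clock, matrix and cell type genes, were followed across the numbers.

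The libraries held 13814658 to 15265097 reads in genes for number 1 and 14758646 to 16329729 for number 2. Genes with at least 1 read numbered 13658 to 14066 and 14082 to 14311, and the part of depth in this was not tested. Slfn2 stood at 18.7, 527, 46.1 and 75 normalised reads in number 1 and at 17.4, 449, 34.9 and 171 in number 2. It was above the WT-labelled level in the untreated KO-labelled libraries and below it in those with IFN-β, so the groups are called WT-labelled and KO-labelled throughout. Its difference between the numbers was 0.12 ± 0.27 (log2, SE, adjusted p = 0.75). At 3 reads or fewer in each library were 7 of 12 macrophage markers (Ptprc and Itgam among them), 8 of 12 epithelial (Epcam, Cdh1), 4 of 10 endothelial (Kdr, Tie1), 7 of 12 neural (Gfap, Sox10) and 7 of 12 skeletal muscle markers (Myod1, Myog), and 0 of 12 fibroblast markers. Other markers moved with the number. The summed normalised reads of the skeletal muscle markers were 613 to 1015 in number 1 and 128 to 528 in number 2, where Tnnt2, a troponin T, fell by 1.59 ± 0.28 (adjusted p = 0.0045) and Des, the filament protein desmin, rose by 1.48 ± 0.40 (adjusted p = 0.022, or 0.058 to 0.065 without the WT untreated, WT IFN-β or KO IFN-β pair). Neural markers summed to 720 to 1132 and 953 to 1395, with Mbp, the myelin basic protein, up by 2.30 ± 0.54 (adjusted p = 0.013). Endothelial markers summed to 41.2 to 107 and 81.1 to 184, with Egfl7, a secreted vessel protein, up by 0.87 ± 0.17 (adjusted p = 0.0074). Macrophage markers summed to 186 to 349 and 156 to 424, epithelial markers to 2.11 to 7.69 and 5 to 14.6, and fibroblast markers to 273362 to 349711 and 304705 to 479163. The part of other cell types in the results below was not tested. In bulk samples fewer cells of a type and less RNA per cell cannot be told apart.

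The 2 numbers differed over a large part of the transcriptome. Of 12264 genes tested, 5319 passed at an adjusted p under 0.05 (43.4%). Of these, 2776 were higher in number 2 (22.6% of genes tested) and 2543 lower (20.7%). The counts of rises and falls in the lists below are to be read beside these 2 shares. A difference of at least 2-fold was found in 1391 genes (11.3%), 890 higher and 501 lower. Without the KO untreated pair 3215 genes passed (1676 higher, 1539 lower), and without the KO IFN-β pair 3519 (1806 higher). With libraries scaled by total reads in place of the authors' size factors, the median of all genes moved from 0.02 to 0.11 (log2) and the share of higher genes among those called from 52.2% to 64.2%. Each test was limma's, on log2(normalised reads + 1) with a term for each group, and every difference is number 2 minus number 1 on that scale. The p-values measure the spread between the 4 pairs, which may be technical. Whether the pairs are independent is not stated, and pairs of the same genotype were more alike than pairs across genotypes (below). Each group holds 1 library of each number, so the p-values do not measure how a repeat of either number would vary. For 1 value over 4 pairs, an exact two-sided permutation test cannot go below 0.125.

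The pairs shared much of their direction. In 7127 genes (58.1% of those tested) all 4 pairs differed the same way, and 5188 of the 5319 called genes were among them. Across genes, the differences of the 2 KO-labelled pairs correlated at Pearson r = 0.87 (Spearman 0.88). Those of the 2 WT-labelled pairs gave 0.73 (0.67), and a WT-labelled with a KO-labelled pair gave 0.60 to 0.65. These correlations describe 12264 genes, which are not independent replicates, and no library enters both pairs of a correlation.

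**Figure D1:**
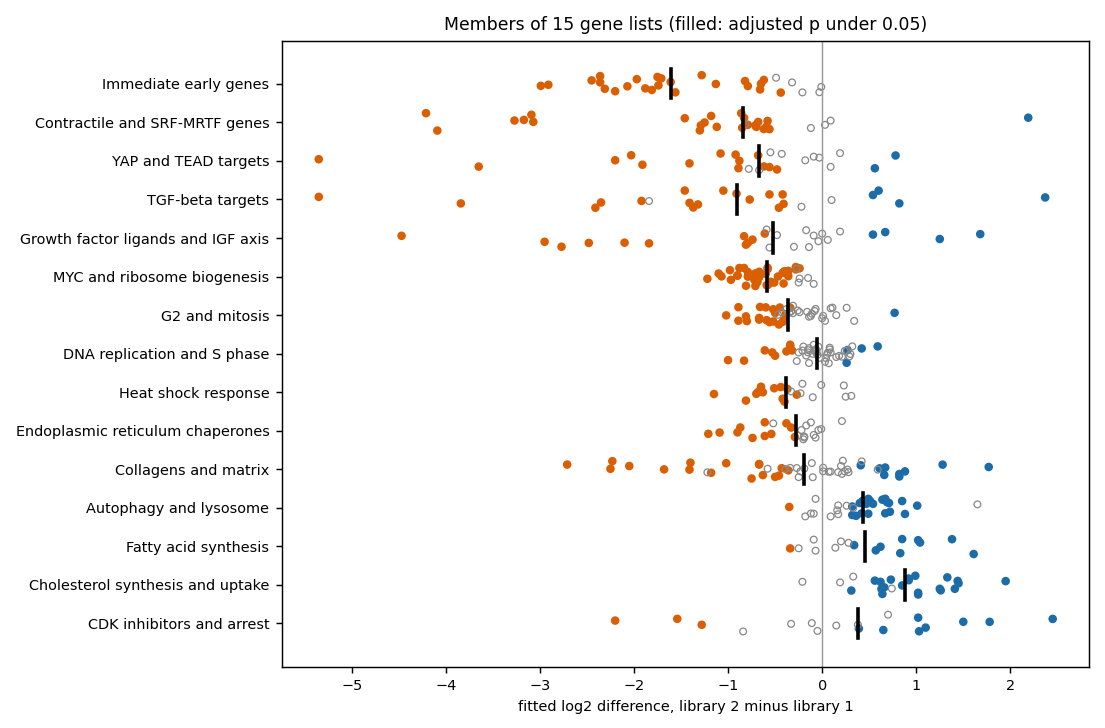
Fitted log2 difference (library 2 minus library 1, x axis) of each tested member of 15 gene lists. Filled points passed at an adjusted p under 0.05 (orange lower, blue higher in number 2), open points did not, and black bars are list medians. Immediate early genes have a median of -1.61 and cholesterol genes one of 0.88.

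Immediate early genes, which answer growth factors ahead of new protein synthesis, had the lowest median of the lists with 10 or more tested members. Of 29 tested members, 24 fell and the other 5 did not pass, against 20.7% of all genes falling. The list median was -1.61 (log2), and it was -1.72, -1.39, -1.47 and -1.29 in the 4 pairs. Egr1, a zinc-finger factor switched on by serum, read 2429, 2971, 1249 and 1492 normalised reads in number 1. In number 2 it read 597, 685, 228 and 324, so that no library of number 2 reached any of number 1. The difference was -2.20 ± 0.10 (log2, SE, n = 4 pairs, adjusted p = 0.0001). Fos, a subunit of the AP-1 factor, went from 159, 265, 36.7 and 80.3 normalised reads to 37.8, 29, 9.42 and 10.9. It fell in each pair, by 2.45 ± 0.26 in log2 (adjusted p = 0.00094), although WT-labelled number 2 and KO-labelled number 1 overlap. Ier3, an early survival gene, fell by 2.91 ± 0.19 and Maff, a small MAF factor, by 2.99 ± 0.26, the largest falls of the list.

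The promoters of this class are known for CArG boxes, the sites that SRF binds. A CArG box was found in 25.9% of the RefSeq promoter windows of the immediate early list (7 of 27) and in 34.5% of those of the contractile list (10 of 29), against 1.63% of all 32851 windows. Each window runs from 250 bases before to 50 after a gene's start, and both strands were read. Among the windows of members that passed, the shares were 26.1% (6 of 23) and 36% (9 of 25). The lists hold known genes of each pathway, so such shares, here and below, do not bear on the difference between the numbers. A match is a description of letters and shows no binding. The window of Dusp5 (chr19:53528895-53529194, + strand, GRCm38.p6) is shown because it holds 2 such boxes side by side, in capitals.
Dusp5: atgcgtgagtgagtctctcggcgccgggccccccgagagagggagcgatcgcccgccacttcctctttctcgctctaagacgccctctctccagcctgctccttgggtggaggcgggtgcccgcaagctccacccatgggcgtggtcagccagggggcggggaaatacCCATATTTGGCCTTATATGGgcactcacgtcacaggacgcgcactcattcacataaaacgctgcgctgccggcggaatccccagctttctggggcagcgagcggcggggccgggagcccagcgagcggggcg
Dusp5 encodes a nuclear phosphatase that switches off ERK, and it read 538, 700, 425 and 708 normalised reads in number 1. It read 124, 183, 144 and 183 in number 2 and fell by 1.88 ± 0.13 in log2 (adjusted p = 0.00032) with no overlap.

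Genes of the contractile apparatus fell with them. Of 28 tested genes of the SRF and MRTF list, 23 fell, 1 rose and the median was -0.84 (log2), with -0.97, -0.86, -0.97 and -1.06 in the pairs. Actg2, the smooth muscle γ-actin (chr6:83512909-83536251), stood at 1669, 1523, 1303 and 1274 normalised reads in number 1 and at 214, 175, 34.9 and 25.5 in number 2. The groups were far apart, and the difference was -4.21 ± 0.45 (adjusted p = 0.0009). Tagln, the actin-binding protein transgelin, read 9080, 7790, 8128 and 7053 against 1312, 973, 224 and 169 and fell by 4.09 ± 0.44 (adjusted p = 0.00096). Acta2, the smooth muscle α-actin that marks myofibroblasts, read 27965, 27765, 33434 and 34274 against 8123, 6447, 1898 and 1823. It fell by 3.07 ± 0.42 (adjusted p = 0.002), and number 1 was higher in each pair. Cnn1, the actin-bound protein calponin, fell by 3.27 ± 0.32. The windows below belong to a contractile regulator, an adaptor and a cytoplasmic actin of the list, each with its CArG box in capitals (GRCm38.p6: Myl9 chr2:156775214-156775513, + strand; Fhl1 chrX:56779433-56779732, + strand; Actg1 chr11:120348446-120348745, - strand).
Myl9: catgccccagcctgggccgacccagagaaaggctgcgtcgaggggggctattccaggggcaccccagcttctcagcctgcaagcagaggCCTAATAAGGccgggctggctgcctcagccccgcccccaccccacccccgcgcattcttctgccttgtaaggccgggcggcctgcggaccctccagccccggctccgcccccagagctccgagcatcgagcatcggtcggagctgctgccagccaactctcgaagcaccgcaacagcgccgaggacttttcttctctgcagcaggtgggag
Fhl1: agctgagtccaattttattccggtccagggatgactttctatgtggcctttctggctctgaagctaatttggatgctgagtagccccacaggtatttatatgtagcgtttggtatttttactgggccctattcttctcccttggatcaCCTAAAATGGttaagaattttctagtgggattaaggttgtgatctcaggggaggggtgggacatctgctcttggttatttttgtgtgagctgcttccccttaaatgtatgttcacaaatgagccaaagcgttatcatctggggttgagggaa
Actg1: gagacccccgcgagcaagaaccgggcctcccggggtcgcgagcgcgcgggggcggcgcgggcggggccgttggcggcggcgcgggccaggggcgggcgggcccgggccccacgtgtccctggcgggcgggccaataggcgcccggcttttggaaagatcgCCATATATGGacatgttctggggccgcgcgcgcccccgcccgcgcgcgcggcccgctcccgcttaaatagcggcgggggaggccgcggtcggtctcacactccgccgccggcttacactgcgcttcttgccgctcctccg
These 3 genes were chosen for their windows after their values were seen. Myl9, a regulatory myosin light chain, fell by 3.17 ± 0.26, Fhl1 by 3.09 ± 0.13 and Actg1 by 1.30 ± 0.11. Fhl1 read 1352, 1100, 2793 and 2510 normalised reads in number 1 and 184, 160, 264 and 248 in number 2.

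Targets of YAP with TEAD, and of TGF-β, held the largest single fall among the list genes named, that of Ctgf. Ctgf, a secreted matrix factor in both lists (chr10:24595442-24598683), read 13518, 12269, 21266 and 18618 normalised reads in number 1. It read 546, 688, 302 and 206 in number 2. That is a difference of -5.35 ± 0.37 (40.8-fold lower, adjusted p = 0.00032), with the groups far from overlap. Cyr61, its close relative, read 12184, 11313, 17622 and 16210 against 1354, 1697, 912 and 748 (-3.65 ± 0.27, adjusted p = 0.00041). Ankrd1, a nuclear ankyrin-repeat protein, fell by 2.20 ± 0.27. Of 25 tested genes of the YAP list 14 fell and 2 rose, with a median of -0.67. Leaving out any 1 pair left 1 rise. A TEAD site (GGAATG, either strand) was in 42.1% of the list's windows (8 of 19) and in 14.7% of all. The window of Cyr61, named Ccn1 in RefSeq (chr3:145649936-145650235, - strand, GRCm38.p6), shows it on the opposite strand, in capitals.
Cyr61: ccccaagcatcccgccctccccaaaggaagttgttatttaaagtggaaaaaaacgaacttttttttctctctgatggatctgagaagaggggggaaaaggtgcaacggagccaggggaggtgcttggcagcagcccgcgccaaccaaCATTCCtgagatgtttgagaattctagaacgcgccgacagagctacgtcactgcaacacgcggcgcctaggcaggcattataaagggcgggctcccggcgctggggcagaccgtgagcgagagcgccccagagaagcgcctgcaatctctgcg
The TGF-β list had 16 falls and 4 rises among 23 tested genes and a median of -0.91. Id2, an inhibitor of helix-loop-helix factors, read 1114, 852, 955 and 704 normalised reads in number 1 and 190, 210, 146 and 134 in number 2. It fell by 2.41 ± 0.14 (adjusted p = 0.0002), without overlap.

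**Figure D2:**
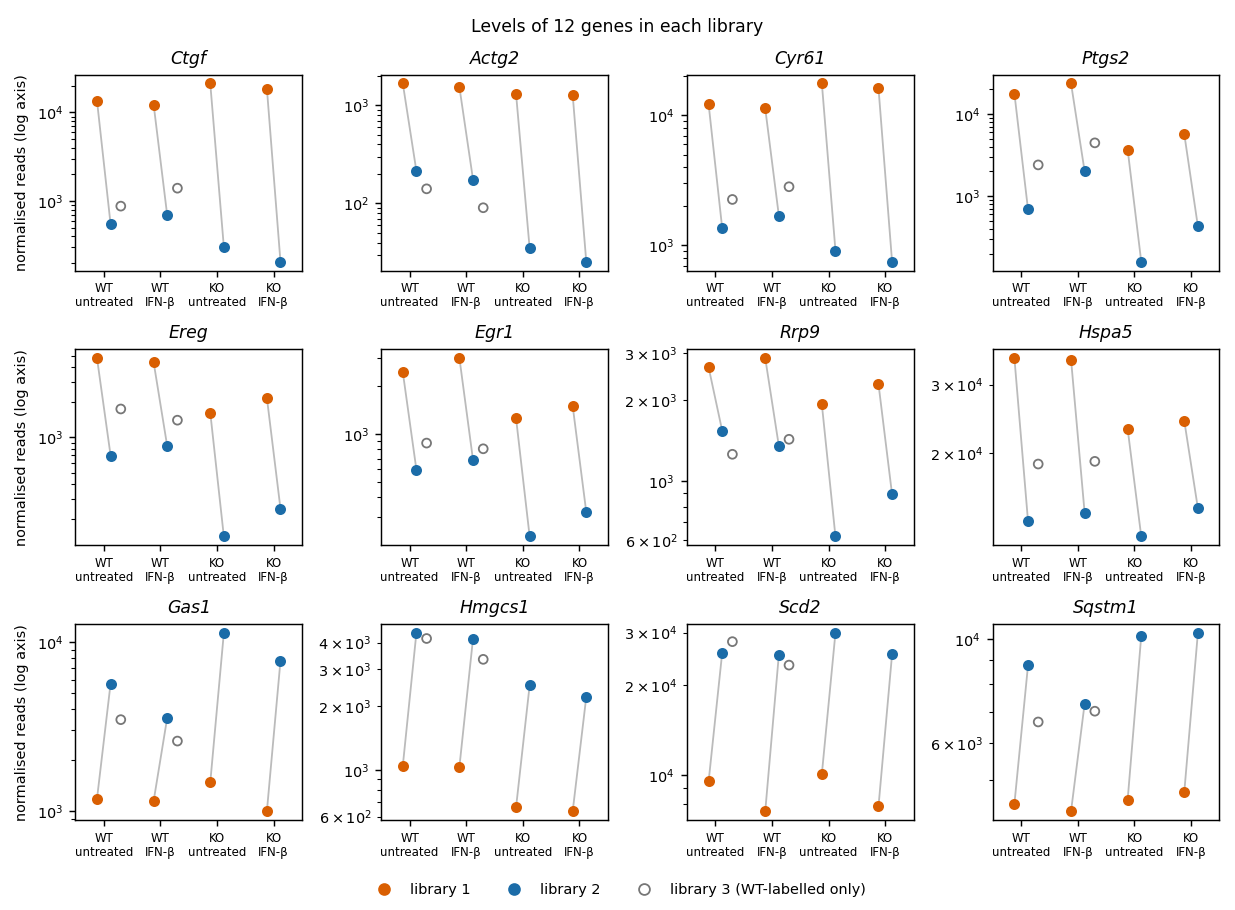
Normalised reads (log axis) of 12 genes in each library, by group. Orange points are libraries numbered 1, blue points those numbered 2 (joined within a group) and open grey circles those numbered 3. Ctgf falls from 12269 or more to 688 or less, and Hmgcs1 rises from 1045 or less to 2213 or more.

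Several secreted growth factors, and the inflammatory genes Ptgs2 and Lif, were lower in number 2. In the list of growth factor ligands and the IGF axis, 11 of 26 tested genes fell and 4 rose, with a median of -0.52 (-0.30 with a pseudocount of 5 and -0.34 without the KO untreated pair). Ereg, a ligand of the EGF receptor, read 4752, 4385, 1629 and 2176 normalised reads in number 1 and 699, 841, 142 and 246 in number 2 (-2.95 ± 0.17, adjusted p = 0.00022). The numbers did not overlap. Hbegf, a ligand of the same receptor, fell by 2.77 ± 0.16. Fgf2, a mitogen of fibroblasts, stood at 39.5, 33, 59.8 and 31.7 normalised reads in number 1 and at 0.968, 1, 1.88 and 0 in number 2. The latter are 4 reads over the 4 libraries, at which depth the size of its fall is uncertain. Ptgs2, the inducible cyclooxygenase, read 17533, 23306, 3659 and 5642 against 692, 2003, 160 and 431 and fell by 4.10 ± 0.19 (adjusted p = 0.0001). It was higher in number 1 in each pair and without overlap. Lif, a cytokine of the interleukin-6 family, fell by 4.36 ± 0.33. Ptgs2 and Lif are both counted among NF-kB targets, but that list was split, with 9 higher and 7 lower of 32 and a median of -0.02. Its higher count dropped to 5 without the WT untreated pair, to 5 without the KO untreated pair and to 4 without the KO IFN-β pair.

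Ribosome biogenesis fell widely and by less. Of 41 tested genes of the MYC and ribosome biogenesis list, 36 fell and the other 5 did not pass, with a median of -0.59 and -0.41, -0.49, -0.76 and -0.68 in the pairs. All 41 fitted differences were below 0. Myc, the growth factor-driven regulator counted with them, read 12815, 17079, 7144 and 10326 normalised reads in number 1 against 7342, 10213, 3121 and 5675 in number 2. It fell by 0.90 ± 0.10 (adjusted p = 0.00094), in each pair. Rrp9, a protein of the U3 particle that processes rRNA, read 2656, 2872, 1930 and 2299 normalised reads in number 1 and 1538, 1352, 620 and 890 in number 2 (-1.22 ± 0.14, adjusted p = 0.0011). Polr1e, a subunit of RNA polymerase I, fell by 1.10 ± 0.15, and Rrp12, a ribosome export factor, by 1.07 ± 0.16. An E-box (CACGTG), the site of MYC and related factors, was in 21.1% of the list's windows (8 of 38) against 7.15% of all. The proteins of the finished ribosome did not follow. Of 76 tested cytosolic ribosomal protein genes 10 fell and 4 rose, where 20.7% and 22.6% of all genes did, with a median of -0.01. Under total-read scaling these counts were 6 and 14, and without the KO IFN-β pair 4 and 0. The rises numbered 1 without the WT untreated pair, 12 without the WT IFN-β pair and 0 without the KO untreated pair, 7 with DESeq2 and 8 over all 10 libraries.

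The counts of 3 lists of mitochondrial and proteasome genes moved with single pairs. In the untreated WT-labelled pair the difference fell with gene length (Spearman -0.26 over 11108 genes, with medians of 0.26 among the 2777 shortest and -0.25 among the 2777 longest genes). In the other pairs this value lay between -0.02 and 0.07, and the part of length in the lists was not tested. The nuclear-encoded respiratory chain had 8 rises among 52 tested genes, where 22.6% of all genes rose, and a median of 0.06. Those rises were 2 with either of the KO-labelled pairs left out and 15 under total-read scaling, and 5 genes fell without the WT untreated pair. Sdha, the flavoprotein of complex II, rose by 0.38 ± 0.07. The mitochondrial ribosome had 11 falls and 2 rises among 41 genes and a median of -0.18 (-0.08 under total-read scaling). Its falls ranged from 4 without the KO untreated or KO IFN-β pair, through 6 without the WT IFN-β pair, to 19 without the WT untreated pair, and numbered 4 under total-read scaling. The proteasome had 9 falls among 31 (15 without the WT untreated pair, 4 with either of the KO-labelled pairs left out) and a median of -0.17, which was -0.07 under total-read scaling and -0.10 without the KO untreated pair. Psmd8, a subunit of its cap, fell by 0.62 ± 0.10.

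Cell-cycle genes did not move as 1 block. Mki67, the proliferation marker Ki-67, read 4097, 3177, 3893 and 3573 normalised reads in number 1 and 4434, 4482, 3740 and 3323 in number 2. It was higher in both WT-labelled pairs and lower in both KO-labelled ones, with a difference of 0.11 ± 0.11 (adjusted p = 0.45). Of 44 tested genes of G2 and mitosis, 20 fell and 1 rose, with a median of -0.37 (-0.23 without the KO untreated pair). That median was -0.15 and -0.05 in the WT-labelled pairs and -0.62 and -0.59 in the KO-labelled pairs. The falls numbered 10 without the KO untreated pair and 11 without the KO IFN-β pair. Cep55, needed for the last cut between daughter cells, read 1112, 932, 1416 and 1239 against 580, 764, 543 and 643 (-0.89 ± 0.17, adjusted p = 0.0056). Cks2, a partner of CDK1, fell by 1.02 ± 0.20, and Mybl2, a factor of the mitotic genes, by 0.89 ± 0.18. A CHR element (TTTGAA), known from mitotic promoters, was in 74.4% of the list's windows (29 of 39) and 17.9% of all. Of 47 genes of DNA replication 9 fell and 4 rose, where 20.7% and 22.6% of all genes did, with a median of -0.06. The falls were 5 without the KO untreated pair. The rises were 9 under total-read scaling, 8 over all 10 libraries and 2 with TMM scaling, with edgeR, without a low-count filter, or without the WT untreated, KO untreated or KO IFN-β pair. Ccne2, the S-phase cyclin E2, fell by 1.00 ± 0.15, and Rrm2, a subunit of ribonucleotide reductase, by 0.83 ± 0.16. Ccnd1, the cyclin D1 of early G1, read 4544, 4811, 3164 and 3374 against 3285, 3399, 1103 and 1363 (-0.95 ± 0.19, adjusted p = 0.0069).

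Among genes of growth arrest more rose than fell. Of 18 tested CDK inhibitors and arrest genes, 8 rose (22.6% of all genes did) and 3 fell, with a median of 0.38. Gas1, a membrane protein first found in arrested fibroblasts, read 1181, 1144, 1473 and 995 normalised reads in number 1 and 5678, 3563, 11328 and 7742 in number 2. The rise was 2.45 ± 0.21 (adjusted p = 0.00056), and the groups did not overlap. Cdkn2b, the CDK4/6 inhibitor p15, read 391, 668, 363 and 508 against 1415, 1337, 1814 and 1970 (1.78 ± 0.20, adjusted p = 0.00098). Hes1, a repressor downstream of Notch that holds cells in a reversible arrest, went the other way, by -2.20 ± 0.20. Cdkn1a, the p53-driven inhibitor p21, differed in sign between the genotypes. It read 181 and 165 in WT-labelled number 1 and 26.1 and 28 in WT-labelled number 2, but 147 and 152 in KO-labelled number 1 and 298 and 279 in KO-labelled number 2. Its pooled difference was -0.84 ± 0.67 (adjusted p = 0.34). The p53 list as a whole had 5 rises and 9 falls among 24 genes, with a median of -0.17 (-0.28 without the KO untreated pair and -0.08 under total-read scaling). Among 11 tested fibroblast markers 5 rose (3 with either of the KO-labelled pairs left out) and 1 fell. Receptors of platelet-derived growth factor, a mitogen of fibroblasts, rose: Pdgfrb by 1.56 ± 0.20 and Pdgfra by 1.15 ± 0.19.

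Cholesterol synthesis had the highest list median. Of 24 tested genes 20 rose and the other 4 did not pass, with a median of 0.88 and 1.13, 1.02, 0.66 and 0.67 in the pairs. Hmgcs1, the synthase that makes HMG-CoA (chr13:119690351-119708260), read 1045, 1035, 664 and 636 normalised reads in number 1 and 4448, 4182, 2513 and 2213 in number 2. The rise of 1.95 ± 0.09 (3.88-fold, adjusted p = 0.0001) was seen in each pair without overlap. Fdft1, the squalene synthase, read 643, 691, 321 and 332 against 1683, 1598, 944 and 1032 (1.45 ± 0.10), and Tm7sf2, a sterol reductase, rose by 1.44 ± 0.22. The core of a sterol element (TCACNCCAC, either strand) was in 5% of the list's windows (1 of 20) and 1.24% of all. The window that held it is that of Hmgcs1 (chr13:119690101-119690400, + strand, GRCm38.p6), with the core in capitals.
Hmgcs1: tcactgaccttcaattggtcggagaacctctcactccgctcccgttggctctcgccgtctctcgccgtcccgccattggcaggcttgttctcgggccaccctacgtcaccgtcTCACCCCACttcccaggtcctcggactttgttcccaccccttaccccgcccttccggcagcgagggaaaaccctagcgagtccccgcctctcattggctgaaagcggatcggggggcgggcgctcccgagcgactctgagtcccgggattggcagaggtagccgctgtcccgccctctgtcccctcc
Of 16 genes of fatty acid synthesis 9 rose and 1 fell, with a median of 0.45. Scd2, a desaturase of stearate, read 9497, 7548, 10080 and 7832 against 25680, 25200, 29913 and 25376 (1.61 ± 0.09, adjusted p = 0.00015). Acss2, which makes acetyl-CoA from acetate, rose by 1.38 ± 0.19, and Fads2, a further desaturase, by 1.04 ± 0.09.

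Autophagy and lysosome genes rose by less than 2-fold for the most part. Of 33 tested members 21 rose and 1 fell, with a median of 0.43 and 0.65, 0.33, 0.44 and 0.35 in the pairs. Sqstm1, the receptor p62 that brings cargo to autophagosomes, read 4455, 4295, 4548 and 4723 normalised reads in number 1. It read 8784, 7282, 10157 and 10304 in number 2 (1.01 ± 0.09, adjusted p = 0.00065), without overlap. Map1lc3b, the autophagosome protein LC3B, rose by 0.88 ± 0.11, and Tfeb, a master factor of lysosomal genes, by 0.85 ± 0.14. In the FoxO and glucose-sensing list 6 genes rose and 6 fell (3 without the KO IFN-β pair) of 20. Klhl24, a substrate adaptor of ubiquitin ligases, rose by 2.15 ± 0.21, Pik3ip1, an inhibitor of PI3-kinase, by 2.23 ± 0.30, and Ccng2, an atypical cyclin of arrested cells, by 1.50 ± 0.16. Txnip, a glucose-induced arrestin of the same list, fell by 0.53 ± 0.13 (adjusted p = 0.015, or 0.06 without the WT IFN-β pair and 0.05 without the KO IFN-β pair).

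**Figure D3:**
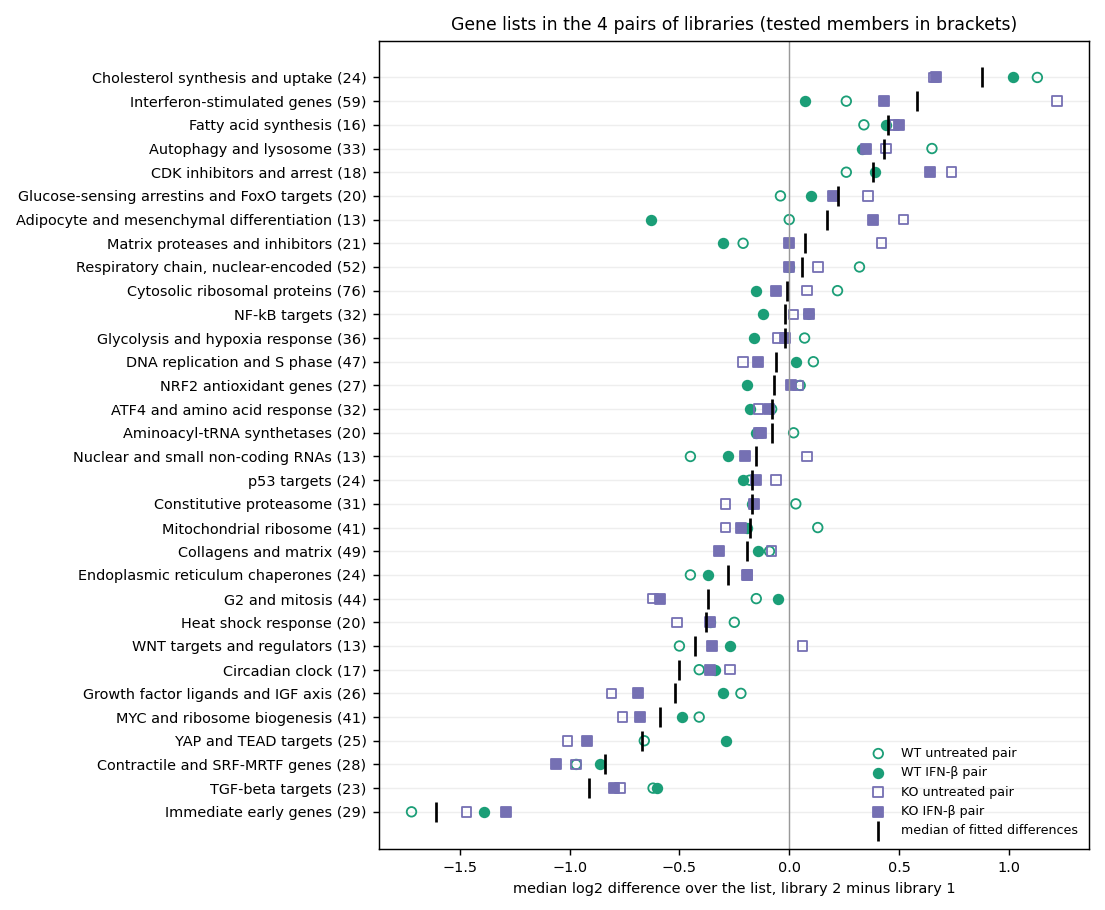
Median log2 difference over each gene list with 10 or more tested members, cell type marker lists aside (x axis, library 2 minus library 1), in the 4 pairs and, as a black bar, of the fitted differences. Immediate early genes lie at -1.29 or below in all pairs and cholesterol genes at 0.66 or above, while interferon-stimulated genes spread from 0.07 to 1.22.

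Protein-folding genes were lower in number 2. Of 20 heat shock genes 12 fell (median -0.38), and of 24 chaperones of the endoplasmic reticulum 11 fell (median -0.28, or -0.18 under total-read scaling). Hspa5, the chaperone BiP, read 35067, 34785, 23052 and 24184 normalised reads in number 1 and 13370, 14042, 12205 and 14427 in number 2. The fall was 1.09 ± 0.12 (adjusted p = 0.0011), with number 2 below number 1 throughout. Dnajb9, a cochaperone of BiP, fell by 1.21 ± 0.19 and Manf, a secreted stress protein, by 0.90 ± 0.08. Hsph1, a partner of HSP70, fell by 0.81 ± 0.10, and Hsp90aa1, the inducible HSP90, by 0.70 ± 0.11. Ddit3, the stress factor CHOP, was instead higher, by 0.47 ± 0.15 (adjusted p = 0.035), and was unequal over the pairs at 470, 709, 590 and 991 against 596, 708, 986 and 1721. Its adjusted p was 0.066, 0.13 and 0.14 without the WT untreated, KO untreated and KO IFN-β pair. In the list of ATF4 and amino acid response, 10 genes fell and 5 rose of 32, with a median of -0.08. The rises were 3 without the WT untreated pair, 2 without the KO untreated pair and 3 without the KO IFN-β pair. Of 20 aminoacyl-tRNA synthetases 6 fell (3 with either of the KO-labelled pairs left out) and 2 rose. The rises were 1 without a low-count filter or without the WT IFN-β pair, and 0 with any other pair left out. Antioxidant genes under NRF2 were split, with 8 rises and 9 falls of 27 (5 falls under total-read scaling or without the KO untreated pair). Mgst1, a membrane-bound glutathione transferase, was among the rises at 2.42 ± 0.20.

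Matrix genes went both ways. Of 49 tested members of the collagen and matrix list 17 fell and 9 rose, with a median of -0.19, and the rises were 5 without the KO IFN-β pair and 6 without the KO untreated pair. The median was -0.04 without the KO IFN-β pair, -0.11 without the WT untreated pair and -0.10 under total-read scaling. Col1a1, the main chain of collagen I, read 98475, 115263, 112448 and 129010 normalised reads in number 1 and 109922, 94081, 141624 and 136552 in number 2. The numbers overlapped, and the difference was 0.07 ± 0.12 (adjusted p = 0.66). Tnc, the matrix protein tenascin C, read 23805, 25790, 17102 and 20964 against 2540, 3817, 2395 and 5133 (-2.71 ± 0.17, adjusted p = 0.0003). Thbs1, the platelet and matrix protein thrombospondin, fell by 2.23 ± 0.39, and Col4a2, a basement membrane collagen, by 2.25 ± 0.26. Col4a2 read 3799 and 4108 normalised reads in WT-labelled number 1 and 1196 and 1363 in number 2. In the KO-labelled libraries it was far lower, at 47.2 and 33.8 against 4.71 and 4.56, where few reads remain. Among proteases and inhibitors, 5 of 21 fell and 5 rose, where 20.7% and 22.6% of all genes did. Plau, the urokinase activator of plasminogen, fell by 2.71 ± 0.21, and Timp1, an inhibitor of matrix proteases, by 1.76 ± 0.13. Vegfa, an angiogenic factor of the hypoxia list, read 6203, 6094, 6764 and 6679 against 1195, 2239, 1445 and 2651 (-1.84 ± 0.18). That list was otherwise split, with 9 falls and 8 rises of 36 (5 rises without the KO untreated pair).

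Clock genes differed between the numbers in both directions. Of 17 tested members 8 fell and 4 rose. Nr1d1, the repressor REV-ERBα, read 535, 547, 606 and 698 normalised reads in number 1 and 167, 197, 182 and 176 in number 2 (-1.71 ± 0.12, adjusted p = 0.00034). Dbp, a clock-output factor, read 20.9, 14.4, 34.6 and 32.7 against 111, 37, 149 and 81.1 (1.75 ± 0.25, adjusted p = 0.0023). The numbers did not overlap for either gene, and their directions were opposite.

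By size, the largest falls and rises were partly outside the lists. Lce1g, a protein of the skin's cornified layer, read 141, 132, 945 and 785 normalised reads in number 1 and 0.968, 10, 3.77 and 5.47 in number 2. Its relative Lce1f read 36.2, 18.5, 201 and 195 against 0.968, 2, 1.88 and 0, or 428 reads against 5 in all. Sema7a, a membrane-anchored semaphorin, read 378, 241, 375 and 306 against 4.84, 8, 11.3 and 7.29 (-5.23 ± 0.25, adjusted p = 0.0001). Each of the 3 was separated between the numbers. The other large falls were those of Serpinb2, Tll1, U90926 and the genes Ctgf, Lif, Actg2 and Ptgs2 described above. C1qtnf1, a secreted relative of adiponectin, rose from 125, 158, 139 and 166 to 907, 970, 1274 and 1520 (2.96 ± 0.13, adjusted p = 0.0001). Mgst2, a microsomal glutathione transferase, rose by 3.68 ± 0.58 from 12.1, 29.9, 2.1 and 2.11 to 115, 85, 98.9 and 103. Ppl, the desmosomal protein periplakin, rose by 3.59 ± 0.41, and Ptgfr, the receptor of prostaglandin F, by 3.37 ± 0.54. The remaining 6 of the 10 largest rises were Trpm6, Abcc3, Tle2, Epn3, Arhgap20 and Plxdc1, at 2.61 to 3.14. Plxdc1 read 2.2, 0, 10.5 and 8.45 against 3.87, 2, 245 and 134, so it met the mean of 50 normalised reads through the KO-labelled libraries. Its adjusted p was 0.06 without the KO untreated pair. Tle2 rose by 1.68 in the WT-labelled pairs and by 3.86 in the KO-labelled, and Ptgfr by 1.94 and 4.80 (interaction adjusted p = 0.005 each). The interaction was not called for Trpm6, Abcc3, Epn3 or Arhgap20.

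The difference between the numbers depended on genotype for a small share of all genes, and for a larger share of some lists. A test of the difference between KO-labelled and WT-labelled pairs called 312 genes (2.54%), 127 of them with opposite signs in the genotypes. The spread in this test is only that between the untreated and IFN-β pairs within a genotype. Of the rest, 167 had the larger difference in the KO-labelled pairs and 18 in the WT-labelled. In the same fit, whose spread is shared by the genotypes, the WT-labelled pairs called 3557 genes (29%) and the KO-labelled 5259 (42.9%). The median absolute difference over all genes was 0.33 and 0.41. The interaction count rested on single pairs: it was 32 without the WT untreated pair and 1532 without the WT IFN-β pair. Without a low-count filter it was 49, and over all 10 libraries 542. Acta2 differed by -1.94 ± 0.11 in the WT-labelled pairs and by -4.19 ± 0.11 in the KO-labelled (interaction adjusted p = 0.0034), and Tagln by -2.90 and -5.28 (interaction adjusted p = 0.0034). Ntrk3, a neurotrophin receptor, read 69.2 and 47.4 normalised reads in WT-labelled number 1 and 11.6 and 16 in number 2, but 57.7 and 39.1 against 339 and 303 in the KO-labelled. Ptx3, a soluble pattern-recognition protein, fell from 2742 and 6957 to 210 and 488 in the KO-labelled pairs and went from 3975 and 10720 to 3466 and 6956 in the WT-labelled. The interaction for Cdkn1a was 3.57 (adjusted p = 0.0034). For Cdkn1a and Ptx3 it held with each pair left out, and for Ntrk3 the adjusted p was 0.053 without the WT untreated pair.

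**Figure D4:**
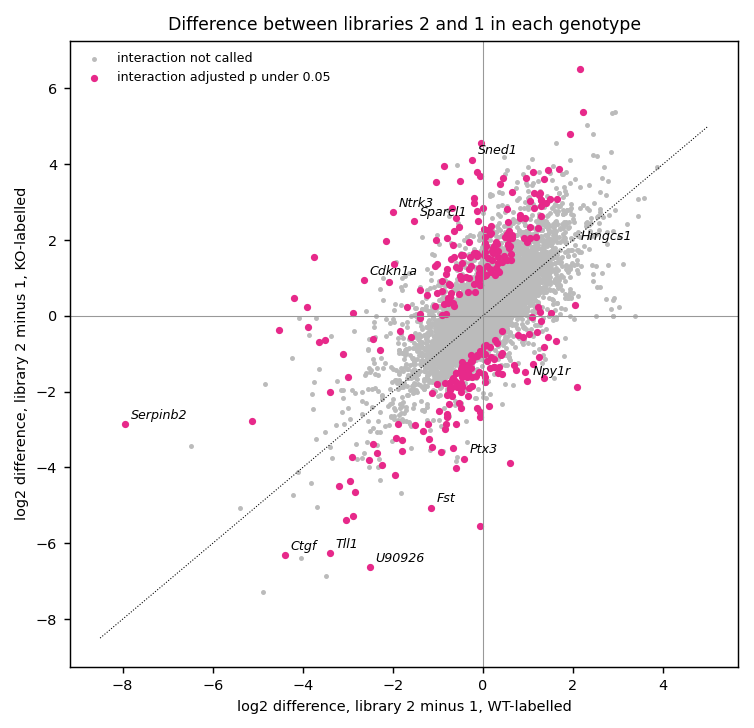
Log2 difference, library 2 minus library 1, of each of 12264 genes in the WT-labelled pairs (x axis) and the KO-labelled pairs (y axis). Pink points are the 312 genes whose interaction with genotype passed at an adjusted p under 0.05, and the dotted line marks equal differences. Ctgf is low on both axes, Hmgcs1 high on both, and Cdkn1a and Ntrk3 have opposite signs.

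No gene was called for a change of the number difference with treatment. limma called 0 of 12264 genes (0%) for an interaction with IFN-β, and edgeR also called 0. At an unadjusted p under 0.05 limma had 294 genes (2.4%) and edgeR 263. The spread in this test is that between the genotypes within a treatment, which was large for some genes. A count of 0 therefore does not show that the differences were equal. Some interferon-stimulated genes were themselves higher in number 2. Of 59 tested, 18 were higher in number 2, where 22.6% of all genes were. The list median was 0.58, and the pair medians were 0.26, 0.07, 1.22 and 0.43. The count was 7 without the WT untreated pair, and the median was 0.22 without the KO untreated pair. Within genotypes, 3 of the 59 passed in the WT-labelled pairs, where 29% of all genes did. In the KO-labelled pairs 29 passed, where 42.9% of all genes did. The interaction with genotype was passed by 0 of the 59 in limma or edgeR (21 and 17 at an unadjusted p under 0.05). Gbp2, a guanylate-binding protein, read 178, 9395, 25.2 and 5739 normalised reads in number 1 and 761, 12363, 201 and 12783 in number 2 (1.65 ± 0.36, adjusted p = 0.01). Number 2 was thus higher with and without IFN-β, and the adjusted p was 0.055 without the WT untreated pair.

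The numbering also bears on how many genes pass for IFN-β. Over the 8 libraries, the comparison of IFN-β with untreated called 278 genes (2.27%) when the number was left out of the fit. With the number as a replicate block it called 635 (5.18%). The count without the block was 167 without the WT IFN-β library 1, 158 without its library 2 and 179 without the KO IFN-β library 2.

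Libraries numbered 3, which exist only for the WT-labelled groups, lay nearer to number 2 by the size of the differences. Number 3 differed from number 1 in 3013 genes (24.6%), 1461 higher and 1552 lower, and from number 2 in 256 (2.09%), 67 higher and 189 lower. These 2 comparisons share the libraries numbered 3. They come from a fit to all 10 libraries, in which the KO-labelled pairs also enter the difference between numbers 1 and 2. Over the 6 WT-labelled libraries alone the counts were 2472 for 3 against 1 and 106 for 3 against 2. Over the WT-labelled libraries the median absolute difference was 0.33 for number 2 against 1, 0.29 for 3 against 1 and 0.23 for 3 against 2. The counts rested on single libraries: without the untreated number 3 library they were 182 and 0, and without the IFN-β one 294 and 0. The count for 3 against 2 was 169 without the WT untreated library 1, 106 without its library 2, 55 without the WT IFN-β library 1 and 739 without its library 2. Ctgf read 875 and 1396 normalised reads in the untreated and IFN-β libraries numbered 3, Actg2 141 and 90.5, and Hmgcs1 4185 and 3334. Each was on the side of number 2. The list medians of 3 against 1 were -1.35 for immediate early genes, -0.74 for contractile genes, -0.59 for ribosome biogenesis and 0.98 for cholesterol synthesis. Beside them the WT-labelled medians of 2 against 1 were -1.55, -0.90, -0.47 and 1.00. Other lists set number 3 apart from number 2. The collagen and matrix list stood at -0.74 for 3 against 1 and at -0.08 for 2 against 1, and the ATF4 list at -0.73 and -0.06. Col1a1 read 52534 and 51864 normalised reads in number 3, below each of the 8 other libraries.

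**Figure D5:**
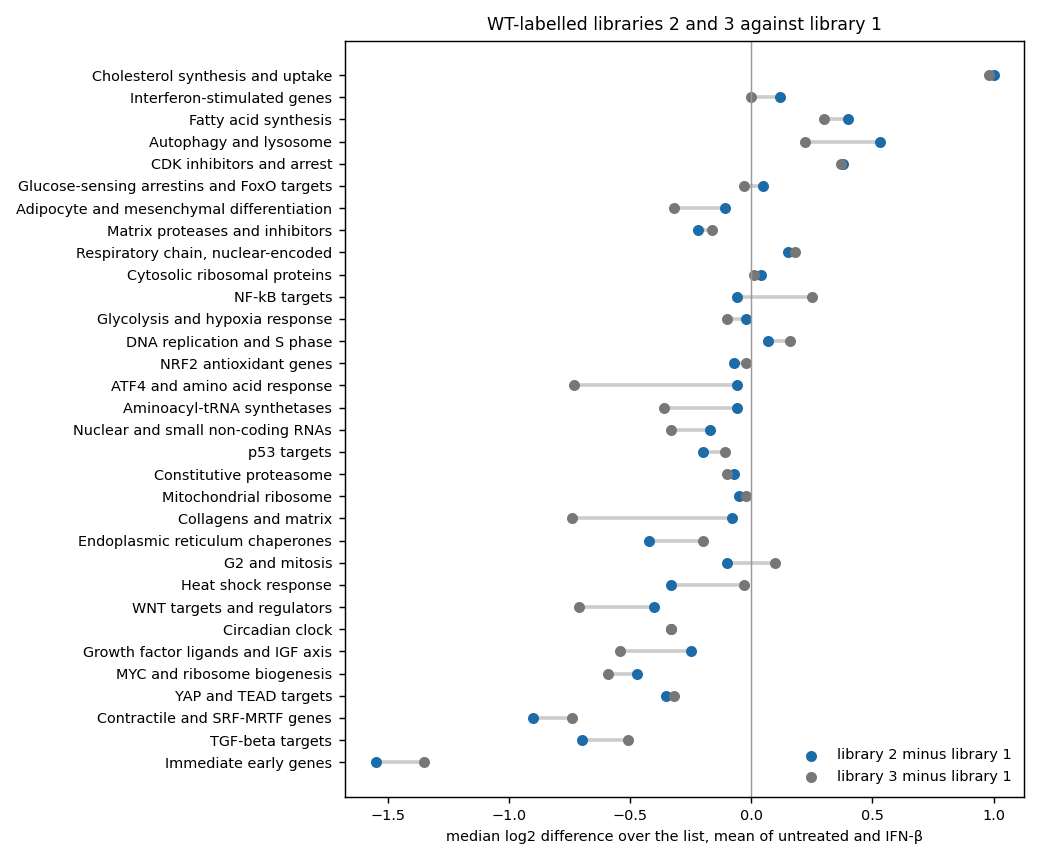
Median log2 difference over each gene list (x axis, mean of untreated and IFN-β) in the WT-labelled libraries, for library 2 minus library 1 (blue) and library 3 minus library 1 (grey). Both lie at -1.35 or below for immediate early genes and at 0.98 or above for cholesterol genes, and they part for collagens and for ATF4 genes.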

How the data were processed

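RNA was sequenced from the 10 libraries described above. The kit was a stranded one for total RNA (Illumina TruSeq), per the series' design text. The submitters' processing notes name cutadapt 1.13, STAR 2.5.2a, HTSeq, DESeq2 and the mm10 build. Annotation, strand setting and filters are not given in the sources used here, so overlapping and antisense genes may share reads. The deposited values are a signal, read counts per gene after the authors' division by the size factor of the library, called normalised reads here. All values (100% per library, within 0.001 reads) were whole multiples of 1 read, so reads were recovered. The 8 libraries held 13814658 to 16329729 of them, and 3 reads equal 2.73 to 3.29 normalised reads.

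The deposited unit is no raw count, so genes were tested with limma's trend method (version 3.58.1, under R 4.3.3) on log2(normalised reads + 1), with group and number as terms, over 12264 genes that passed filterByExpr (edgeR 4.0.16, minimum count 10), with Benjamini-Hochberg adjusted p, two-sided. The script was tested on simulated data. Alternatives were TMM and total-read scaling, edgeR and DESeq2 1.42.0 on the recovered reads, a pseudocount of 5, no filter, all 10 libraries, and leaving out pairs or libraries. Number 3 was read from a fit to all 10 libraries.

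Named genes were the 10 largest rises and falls (adjusted p under 0.05, mean of at least 50 normalised reads, all 4 pairs alike, most predicted and clone names left out), up to 3 largest passing differences per list, 16 genes always read, and the 5 largest interactions of each sign. The name rule covered set forms of name and kept U90926. The libraries, gene lists and tests were chosen with earlier results of these data known. Symbols, coordinates and promoter windows are from RefSeq (GRCm38.p6, the build of mm10), and exon lengths from GENCODE for the same build. Libraries were paired by number within a group, and the pair differences correlated at 0.60 or more between all groups. Whether a number marks the same thing in each group is not stated and was not tested. Some items that the rule named are not reported here.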

Additional observations from a re-analysis of the deposited data

Results flagged for a closer look

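Among 35 lists tested for an outlying pair, 3 had a pair far from the other 3, where chance flags about 1 in 20 independent lists. The lists share the same 4 pairs and are not independent. The aminoacyl-tRNA synthetases stood at 0.02 in the WT untreated pair, the NRF2 antioxidant genes at -0.19 in the WT IFN-β pair and the 5 tested neural markers at 0.85 in the KO untreated pair.

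The difference between numbers 2 and 1 itself differed between the genotypes, by the interaction test, for 10 named genes. KO-labelled minus WT-labelled, it was 5.09 for Serpinb2, an inhibitor of plasminogen activators, 4.72 for Ntrk3, 4.36 for Sned1, a matrix protein, 4.02 for Sparcl1, a secreted matrix protein, and 3.57 for Cdkn1a. It was -4.12 for the long non-coding RNA U90926, -3.91 for Fst, an inhibitor of activin, -3.36 for Ptx3, -2.86 for Tll1, a metalloprotease, and -2.70 for Npy1r, a neuropeptide Y receptor. Without the WT untreated pair, 8 of the 10 no longer passed, the exceptions being Ptx3 and Cdkn1a (adjusted p = 0.041 each).

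Few reads lie behind part of these values. U90926 had 190 reads in the KO-labelled libraries numbered 1 and 0 in those numbered 2, at least 36-fold lower against a floor of 3 reads per library. Serpinb2 had 14 reads there against 0, at least 2.65-fold lower, while the WT-labelled libraries read 1018 and 1400 normalised reads in number 1 and 0.968 and 11 in number 2. Its interaction did not pass in edgeR (1.78, adjusted p = 0.89). Fst had 111 reads against 2, a ratio of 64.2 with a counting interval (95%) of 17.3 to 536.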

How the results depend on the processing

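The count of genes differing between the numbers stayed within 1.5 times of 5319 under TMM and total-read scaling, edgeR, DESeq2, a pseudocount of 5, no filter and all 10 libraries. TMM kept 98.6% of the calls, edgeR 97.8%, DESeq2 95.1% and total-read scaling 88.4%. Leaving out 1 pair at a time gave 3215 to 5168 genes, 1676 to 2633 higher and 1539 to 2535 lower, and 1073 to 1557 past 2-fold. The lowest counts, 3215, 1676 and 1539, were without the KO untreated pair, and without the KO IFN-β pair 3519 genes passed, 1806 of them higher. The interaction with genotype gave 542 genes over all 10 libraries, 49 without a filter and 32 to 1532 with a pair left out. Leaving out a library, number 3 against 1 gave 182 to 4159 genes and 3 against 2 gave 0 to 739, and over the 6 WT-labelled libraries alone 3 against 2 gave 106. The IFN-β comparison called 158 to 243 genes with a library left out, and 635, of which 43 were lower, with the number as a replicate block, where its fit without the block called 278. The causes were not tested. Fewer pairs also leave fewer degrees of freedom, and with a pair or library left out some counts dropped and others rose.

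Under total-read scaling 8 of 40 list medians changed sign, to 0.02 for ATF4 genes, 0.01 for aminoacyl-tRNA synthetases, 0.04 for DNA replication, 0.09 for cytosolic ribosomal proteins, 0.08 for glycolysis and hypoxia, 0.02 for NRF2 genes, 0.07 for NF-kB targets and 0.03 for skeletal muscle markers. With a pair left out, 2 to 4 of the 40 changed sign, and with DESeq2 1 did. Of 132 named genes, 6 changed sign under some alternative, and none of the 6 had passed. With a pair left out, Col1a1 ran from -0.02 (without the KO untreated pair) to 0.19, Mki67 from -0.02 (without the WT IFN-β pair) to 0.18 and Slfn2 from -0.24 (without the KO IFN-β pair) to 0.29. Npy1r ran from -0.87 to 0.09 (with either of the KO-labelled pairs left out), Ntrk3 from -0.48 (without the KO IFN-β pair; -0.35 without the KO untreated pair) to 1.32, and Sparcl1 from -0.34 (without the KO untreated pair; -0.02 without the KO IFN-β pair) to 1.35. Npy1r was also 0.57 with edgeR and 0.02 with a pseudocount of 5. A further 16 named genes no longer passed under at least 1 alternative. The alternatives that leave out a pair for the interactions, or a library for number 3 and for IFN-β, were chosen after seeing the data. At these depths, genes with a few reads per library, such as Fgf2 in number 2, carry counting error that limits the size of their difference.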

Other observations

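By the series' design text the kit was one for total RNA, and how far it captured RNA without a poly(A) tail was not tested. Non-coding RNAs that stay in the nucleus or lack such a tail were also read. Of 13 tested, 1 rose and 4 fell. Neat1, the long non-coding RNA that builds paraspeckles, read 1847, 2064, 1450 and 1944 normalised reads in number 1 and 3240, 4787, 4087 and 6124 in number 2 (1.29 ± 0.14, adjusted p = 0.00094). Rpph1, the RNA of ribonuclease P, fell by 1.07 ± 0.20. The WNT list had 6 falls and 3 rises among 13 tested genes, with a median of -0.43, which was -0.10 with edgeR or a pseudocount of 5, -0.23 without the WT untreated pair and -0.27 without the WT IFN-β pair. Its falls were 4 without the WT IFN-β, KO untreated or KO IFN-β pair. Wisp2, a secreted relative of Ctgf, rose by 1.86 ± 0.15 where Ctgf and Cyr61 fell, from 334, 385, 147 and 151 normalised reads to 1207, 975, 641 and 659. Wnt2, a secreted ligand of this pathway, had 92 reads in number 1 and 9 in number 2. Col2a1, the collagen of cartilage, fell from 1553, 1649, 2527 and 2864 to 176, 129, 735 and 611 (-2.70 ± 0.28, adjusted p = 0.00088).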
